A study of Mus musculus with 6 samples.

Results

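The Usp17l genes of the mouse are a small family of closely related deubiquitinases, and their RNA was followed here in 4-cell embryos that had passed through a block of transcription. The members are Usp17la, Usp17lb, Usp17lc, Usp17ld and Usp17le, taken by symbol from the expression table of each library. They are 5 of the 55335 genes listed, and 1 of the 5, Usp17lb, passed the filter on low values that 11893 genes passed.

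Deubiquitinases cut ubiquitin from proteins, and those of the ubiquitin-specific protease (USP) class do so with a catalytic cysteine. The mouse copies were first known as the Dub genes, induced by cytokines in blood cells, and the related human USP17 (DUB3) is known to remove ubiquitin from the cell cycle phosphatase CDC25A. In the mouse embryo the zygotic genome is first transcribed on a large scale at the 2-cell stage, when genes in repeated copies such as those of the Tdpoz and Zscan4 families are switched on for a short time.

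The embryos form a DRB group and a Con group with 3 libraries each. DRB is a nucleoside analogue that inhibits the kinase CDK9 and so blocks elongation by RNA polymerase II; DRB embryos met it at 20 µM for 20 h, beginning 6 h past fertilization, and developed for a further 26 h after washing. Con embryos are the control 4-cell embryos, and the sources used here give neither a vehicle nor culture times for them, nor the strain or the number of embryos in a library. RNA was measured by Smart-Seq2, which amplifies cDNA primed with oligo-dT, so RNA without a poly(A) tail is poorly captured. Levels are in fragments per kilobase of transcript, scaled to the library's total (FPKM), and the depth, estimated from the steps between low values, was 22600000 to 25400000 fragments per library. Each library comes from whole embryos, where fewer cells with a transcript and less of it per cell cannot be told apart. Con replicate 1 listed 22102 genes above 0 FPKM, against 18485 to 19895 in the other 5 libraries.

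All 5 copies lie on chromosome 7 (mm10 coordinates, GENCODE M21 gene models) in a pair and a trio that are 1348168 bases apart. Usp17ld (chr7:103249737-103252505, minus strand) and Usp17lc (chr7:103415072-103419880, plus strand) form the pair. The trio holds Usp17le (chr7:104768049-104777470, minus strand), Usp17lb (chr7:104840257-104842603, minus strand) and Usp17la (chr7:104857009-104862667, plus strand), with Usp17lb and Usp17la on opposite strands and 14405 bases apart. RefSeq lists the older name Dub1 for Usp17la, Dub1a for Usp17lb, Dub2 for Usp17lc, Dub2a for Usp17ld and Dub3 for Usp17le.

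The coding sequences of the GENCODE models translate to 526 residues for Usp17la, 468 for Usp17lb, 545 for both Usp17lc and Usp17ld and 542 for Usp17le. Usp17lb is the shortest and the most distant copy, with 90.6% to 91.5% of bases and 83.5% to 84.8% of residues identical to the other 4. Usp17lc and Usp17ld are the closest pair, with 98.4% of bases identical. Around the codon of the catalytic cysteine the copies are almost the same, as 60 coding bases show, in which the tgc of aacagctgctac is the cysteine codon and a capital marks a base that differs from Usp17lb. Usp17la has the sequence of Usp17lb and Usp17ld that of Usp17lc, and positions count from the first base shown, so the differences from Usp17lb are C12T in Usp17lc and T42C in Usp17le.
Usp17lb: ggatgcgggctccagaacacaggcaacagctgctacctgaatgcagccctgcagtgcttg
Usp17lc: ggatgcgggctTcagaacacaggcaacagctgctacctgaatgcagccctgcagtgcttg
Usp17le: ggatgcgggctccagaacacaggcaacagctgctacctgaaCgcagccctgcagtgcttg

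Usp17lb differs from each of its relatives at 120 to 132 of 1404 aligned coding bases. The 60 coding bases below, from base 1335 of the Usp17lb coding sequence, were chosen as the stretch with the most bases that Usp17lb alone has, 13 of 60, and capitals mark those 13 positions in every copy.
Usp17lb: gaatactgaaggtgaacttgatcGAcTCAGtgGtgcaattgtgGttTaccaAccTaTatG
Usp17la: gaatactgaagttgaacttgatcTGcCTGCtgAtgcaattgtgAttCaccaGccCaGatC
Usp17lc: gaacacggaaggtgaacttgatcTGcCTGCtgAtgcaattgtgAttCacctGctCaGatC
Usp17ld: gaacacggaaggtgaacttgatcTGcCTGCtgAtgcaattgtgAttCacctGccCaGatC
Usp17le: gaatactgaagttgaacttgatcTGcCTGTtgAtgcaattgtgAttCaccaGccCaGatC

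Over the whole transcript, 32 of the 1258 windows of 150 bases in the shorter Usp17lb model (2.54%) occur unchanged in another copy, in each case Usp17la. The read length was 150 bases, so few Usp17lb fragments could equally come from another copy. Usp17lc and Usp17ld share 663 windows, 42.8% of those in the shorter Usp17lc model and 36.1% of those in Usp17ld, so the division of reads between these 2 copies is uncertain. Usp17le shares 12 of the 1477 windows of its shorter model with Usp17lc and Usp17ld.

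Usp17lb was the abundant copy and its level was higher in DRB embryos in every library, although it did not pass the test adjusted over all genes. Usp17lb had 35.6, 84.8 and 21.5 FPKM in DRB replicates 1, 2 and 3, against 18.4, 2.84 and 9.93 FPKM in Con replicates 1, 2 and 3. The groups did not overlap, but the margin was small: the lowest DRB library stood 1.17 times above the highest Con library. Of all genes tested, 9.85% had every DRB library above every Con library. By the estimated depth these levels stand for about 680 to 2691 fragments in the DRB libraries and 84 to 585 in the Con libraries, over the 2 transcript models. The cDNA was amplified, so the number of RNA molecules behind these fragments is not known. The part of counting error in the spread between libraries was not tested.

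The mean level of Usp17lb was 47.3 ± 33.3 FPKM in DRB embryos and 10.4 ± 7.79 FPKM in Con embryos (SD, n = 3 each), a ratio of 4.55. On the log2(FPKM + 1) scale the difference was 2.15 ± 0.61 (limma SE, DRB over Con), with an unadjusted p of 0.00501 and a Benjamini-Hochberg adjusted p of 0.0954, above the threshold of 0.05. The 1 member that entered the test was thus not called, where 2.48% of all tested genes were called in either direction and 1.53% were called higher in DRB. Its unadjusted p was under 0.05, and 7.53% of all tested genes had such a p with a higher level in DRB.

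**Figure D1:**
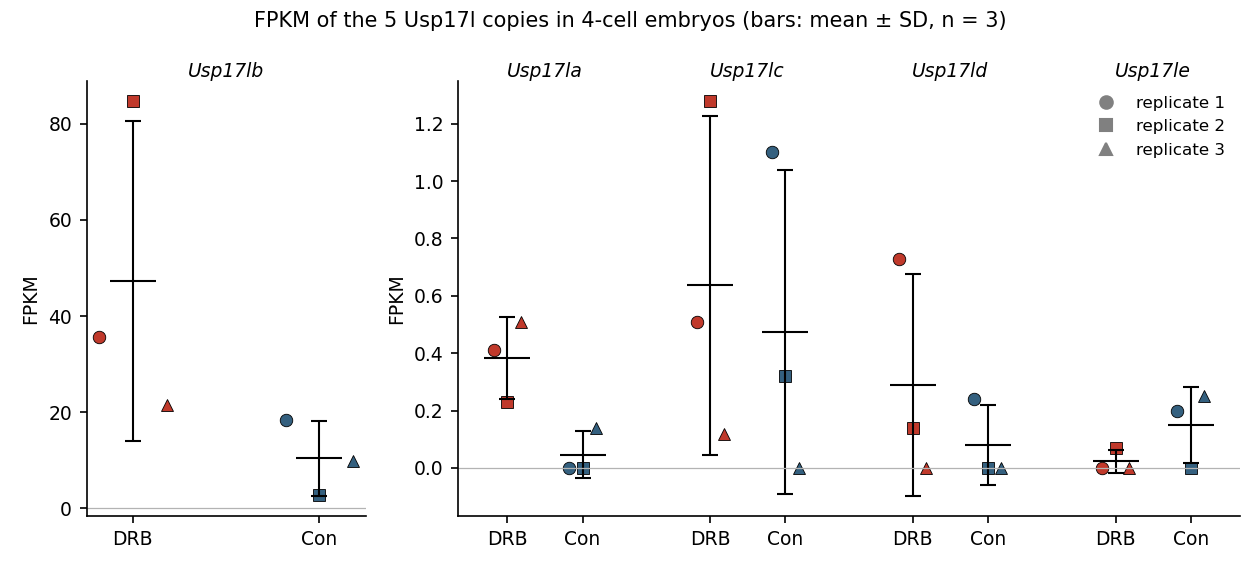
FPKM of each Usp17l copy in every library, DRB left of Con, with the mean and SD of 3 libraries as bars (which can reach below 0) and a marker shape for each replicate; the 2 panels have different scales. Usp17lb reaches 84.8 FPKM in DRB replicate 2 while no other copy passes 1.28 FPKM in any library.

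The other 4 copies were near the floor of the measurement and did not enter the test. Usp17la was listed at 0.41, 0.23 and 0.51 FPKM in DRB replicates 1 to 3, against 0, 0 and 0.14 FPKM in Con replicates 1 to 3. It too had every DRB library above every Con library, on about 24, 13 and 32 fragments in DRB and 0, 0 and 8 in Con. The share of 9.85% with this pattern covers tested genes alone. No share was taken for genes at so low a level, so how common the pattern is there is not known. The mean difference of Usp17la on the log2(FPKM + 1) scale was 0.40, a scale that understates the change of so low a gene. With no filter on low values its unadjusted p was 0.0147 and its adjusted p was 0.369 in limma.

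Usp17lc had 0.51, 1.28 and 0.12 FPKM in DRB embryos, against 1.1, 0.32 and 0 FPKM in Con embryos. Usp17ld had 0.73, 0.14 and 0 FPKM in DRB embryos, against 0.24, 0 and 0 FPKM in Con embryos. For both copies the groups overlapped, and in each the values of single libraries spread more widely than the groups stood apart, at log2 differences of 0.16 for Usp17lc and 0.22 for Usp17ld. Usp17le had 0, 0.07 and 0 FPKM in DRB embryos, against 0.2, 0 and 0.25 FPKM in Con embryos, the only copy with a higher mean in Con, on 10 fragments or fewer in any library. With no filter, the adjusted p of these copies in limma was 0.877 for Usp17lc, 0.674 for Usp17ld and 0.642 for Usp17le. The annotated pseudogene Usp17le-ps was listed at 0 in all 6 libraries.

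Summed over the 5 copies, the family reached 37.2, 86.5 and 22.1 FPKM in DRB replicates 1 to 3, against 19.9, 3.16 and 10.3 FPKM in Con replicates 1 to 3. Usp17lb made up 95.6%, 98.0% and 97.2% of this sum in DRB embryos and 92.3%, 89.9% and 96.2% in Con embryos, so the sum describes this 1 copy. The mean was 48.6 ± 33.7 FPKM in DRB embryos and 11.1 ± 8.42 FPKM in Con embryos (SD, n = 3 each), a ratio of 4.37. The other 4 copies together averaged 1.33 ± 0.61 FPKM in DRB embryos and 0.75 ± 0.685 FPKM in Con embryos, a ratio of 1.78 with overlapping libraries, which was 3.76 without Con replicate 1 and 1.38 to 2.25 without any other single library.

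Libraries of the same group differed widely among themselves. The highest summed level was 3.92 times the lowest in DRB embryos and 6.31 times the lowest in Con embryos. Without DRB replicate 2 the ratio of the means fell to 2.66, and without Con replicate 1 it was 7.21, the 2 libraries that moved it by over 1.5 times. For Usp17lb the log2 fold change stayed between 1.50 and 2.67 over 13 other settings, and the adjusted p lay between 0.0641 and 0.418, so it was not called in any of them.

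**Figure D2:**
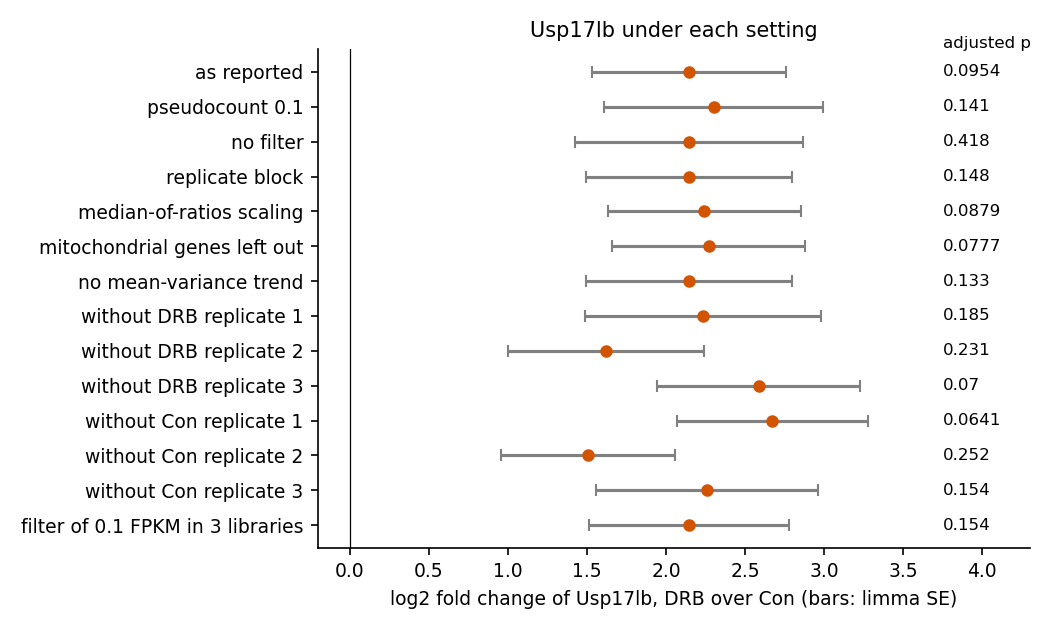
Log2 fold change of Usp17lb, DRB over Con, with limma's SE as bars, for the reported fit and 13 other settings; the adjusted p stands at the right. Every estimate lies above 0, from 1.50 without Con replicate 2 to 2.67 without Con replicate 1, and every adjusted p lies above 0.05.

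Beside other deubiquitinases Usp17lb had the largest rise. Of the 67 deubiquitinase genes tested, Usp17lb included, it had the highest log2 fold change, in the reported fit and in each of the 13 other settings. The next rises were Stambp, a protease of the JAMM class that acts on endosomes, at 1.39, Usp46, whose activity depends on WD-repeat partners, at 0.95, and Usp9x, a large X-linked USP, at 0.83. These 4 genes were picked by the size of their rise, and none was called. The falls of Usp14, at -1.65, and Zup1, at -1.55, were larger than the rise of Stambp. Zup1 had a limma unadjusted p of 0.00245 and an adjusted p of 0.0677. By level, Usp17lb ranked 14, 7 and 15 of 54 USP genes in DRB replicates 1 to 3, against 18, 31 and 23 in Con replicates 1 to 3. It was therefore above the median USP gene (7.07, 6.41 and 3.55 FPKM) in all DRB libraries and below it in Con replicate 2, where that median was 4.59 FPKM.

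Of 49 other USP genes 40 were tested and 0 were called higher and 1 lower, a share of 2.5% beside the 2.48% of all tested genes. Their median log2 fold change was -0.07, against -0.09 over all tested genes. The 1 called gene was Usp14, a deubiquitinase bound to the proteasome, with 66.8, 114 and 95.1 FPKM in DRB embryos, against 421, 239 and 226 FPKM in Con embryos. Its groups did not overlap, and its log2 fold change was -1.65 ± 0.32 (limma adjusted p 0.025), a call that held in 1 of 6 fits that left out a library, the one without DRB replicate 2, with adjusted p-values of 0.0431 to 0.0827 over the 6, and in 4 of 7 other settings. Of 35 deubiquitinases of other classes, 26 were tested and 0 were called in limma, with 1 higher and 6 lower at an unadjusted p under 0.05, against 7.53% higher and 10.5% lower over all tested genes, and with a median of -0.12. The most abundant of these, Psmd14, the deubiquitinase of the proteasome lid, averaged 235 ± 59.7 FPKM in DRB embryos and 350 ± 46.5 FPKM in Con embryos (SD, n = 3 each).

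**Figure D3:**
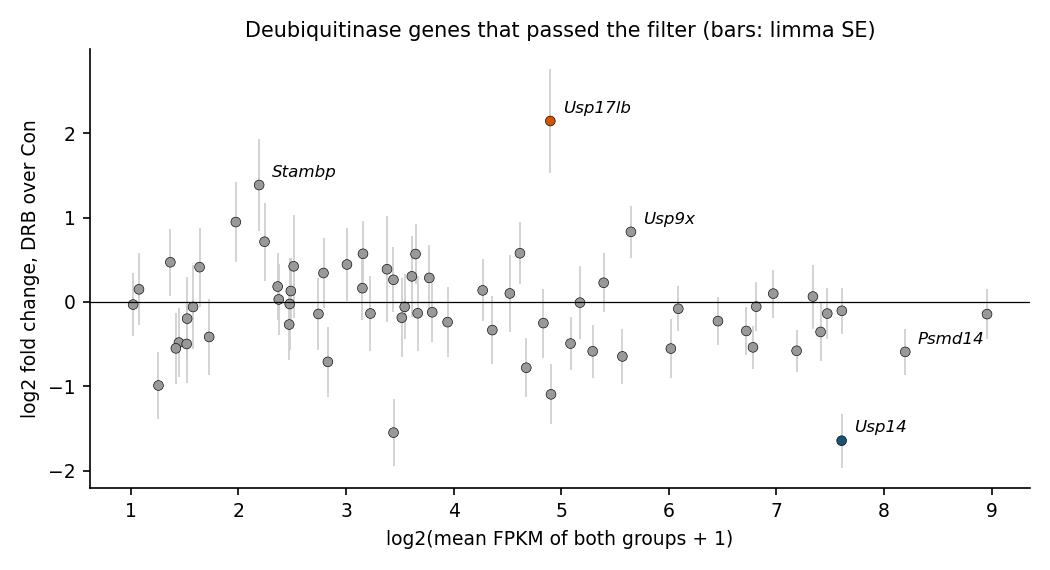
Log2 fold change (DRB over Con, bars limma SE) of the 67 tested deubiquitinases against their mean level, log2(mean FPKM + 1) over both groups. Usp17lb (orange) is the highest at 2.15 and Usp14 (blue), the 1 called gene, lies at -1.65.

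Transcripts of proteins reported as substrates of human USP17 or DUB3 were counted as well, although deubiquitination acts on the protein and not on its RNA. Of 14 such genes 9 were tested, with a median log2 fold change of -0.10. In limma 0 were called, against 2.48% of all tested genes. An unadjusted p under 0.05 was found for 0 of the 9, against 7.53% higher and 10.5% lower over all tested genes. Mcl1, an inhibitor of apoptosis, averaged 135 ± 24.2 FPKM in DRB embryos and 129 ± 22.1 FPKM in Con embryos. Hdac2, a histone deacetylase, averaged 49.2 ± 1.88 FPKM in DRB embryos and 41.8 ± 6.08 FPKM in Con embryos (SD, n = 3 each).

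Some genes of the 2-cell stage were called higher in DRB embryos, a pattern already seen in earlier results of these data. Of 31 listed genes 25 were tested, and 7 were called higher and 0 lower (28.0%, against 2.48% of all tested genes). A positive log2 fold change was found for 24 of the 25, against 44.0% of all tested genes, and the median was 1.13, against -0.09 over all tested genes. The summed level of the list overlapped between the groups, at 936 to 1963 FPKM in DRB libraries and 534 to 993 FPKM in Con libraries. This overlap came from Sp110, which made up most of each Con sum, at 643, 351 and 388 FPKM in Con replicates 1 to 3. Sp110 was at 348 to 453 FPKM in DRB libraries and so did not rise with the list. The overlap of the sums therefore does not describe the other genes of the list. Zfp352, a zinc-finger gene, had 41.1, 55.0 and 36.9 FPKM in DRB embryos, against 7.69, 3.59 and 2.03 FPKM in Con embryos, a log2 fold change of 3.18 ± 0.43 (limma adjusted p 0.00453). Pramef25, of the PRAME family, had 17.1, 51.0 and 7.75 FPKM in DRB embryos, against 0.81, 0.78 and 1.01 FPKM in Con embryos (log2 fold change 3.44 ± 0.59, limma adjusted p 0.0158). Of the 25 tested genes, 10 had every DRB library above every Con library, Zfp352 and Pramef25 among them, against 9.85% of all tested genes.

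Gm2016 and Gm5662, predicted genes on chromosome 12, followed the same pattern. Gm2016 had 125, 290 and 58.2 FPKM in DRB embryos, against 13.5, 5.61 and 13.3 FPKM in Con embryos. Gm5662 had 164, 545 and 82.0 FPKM in DRB embryos, against 21.3, 15.8 and 16.1 FPKM in Con embryos. Both were called, with limma adjusted p-values of 0.00875 for Gm2016 and 0.0125 for Gm5662. Without DRB replicate 1 the adjusted p was 0.0575 for Gm2016, 0.0623 for Gm5662 and 0.0669 for Pramef25, which ended these 3 calls, while Zfp352 was called whichever library was left out. Genes of this group occur in near-identical copies, so the division of reads among copies is uncertain. Like Usp17lb, all 4 named genes were highest in DRB replicate 2. They were the largest called rises of the list, and its other genes varied. Tcstv3 was also highest in DRB replicate 2, at 14.9, 83.7 and 20.8 FPKM in DRB replicates 1 to 3. Arg2 was highest in DRB replicate 1 (31.4, 21.9 and 20.7 FPKM) and Gm2022 in DRB replicate 3 (1.86, 6.85 and 16.3 FPKM).

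The median log2(FPKM + 1) of the 25 tested 2-cell stage genes was 3.59, 4.84 and 4.13 in DRB replicates 1 to 3, against 3.42, 2.60 and 1.61 in Con replicates 1 to 3. The Usp17l sum and this median had their highest value in the same library, DRB replicate 2, and their highest Con value in Con replicate 1. They parted elsewhere, since DRB replicate 3 had the lowest Usp17l sum but not the lowest median of its group, and the lowest Con library was Con replicate 2 for Usp17l and Con replicate 3 for the median. The part of the embryos' stage in the level of Usp17lb was not tested.

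**Figure D4:**
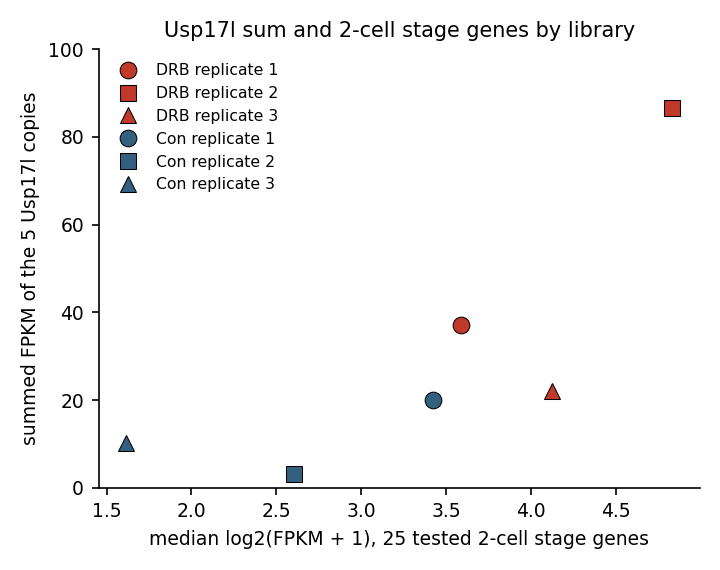
Summed FPKM of the 5 Usp17l copies against the median log2(FPKM + 1) of the 25 tested 2-cell stage genes, 1 point per library. DRB replicate 2 is highest on both axes (86.5 FPKM and 4.84), and Con replicates 2 and 3 are lowest on both.

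By Pearson's r over the 6 libraries, on log2 values against the log2 of the Usp17l sum, 13 genes passed 0.95 among the 7116 whose mean reached 5 FPKM. The points share the library's depth and scaling, and 6 libraries in 2 groups allow many such matches. The 5 most alike were Tra2b, a splicing regulator (r = 0.981), Scarna3a, a small Cajal body RNA (0.974), Tdpoz5, a 2-cell stage gene of the Tdpoz family (0.972), Rpp25, a subunit of RNase P (0.970), and Zfp54, a zinc-finger gene (0.968). Tdpoz5 had 28.0, 45.5 and 22.6 FPKM in DRB embryos, against 29.2, 9.57 and 15.6 FPKM in Con embryos, with overlapping groups. Zfp54 had 13.7, 28.9 and 11.8 FPKM in DRB embryos, against 4.82, 1.31 and 4.14 FPKM in Con embryos, with no overlap and a limma adjusted p of 0.0502. Other 2-cell stage genes ranged widely. Tdpoz4 was at 0.94, Gm2016 at 0.933, Gm5662 at 0.893 and Pramef25 at 0.869. Gm8300 followed at 0.855, Zfp352 at 0.840, Gm4340 at 0.826 and Arg2 at 0.822. The rest lay from 0.654 for Tcstv3 down to 0.0893 for Sp110. Among these were Zscan4d at 0.590, Pramef8 at 0.478, Gm2022 at 0.278 and Gm20767 at 0.252.

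The genes around the copies were mostly listed at 0. Within 250 kb of the start of a member lie 94 other annotated genes, 72 of them olfactory receptor genes or pseudogenes, and 77 were listed at 0 in all 6 libraries. Of these neighbours 4 were tested and 0 were called in limma, against 2.48% of all tested genes. At an unadjusted p under 0.05, 10.5% of all tested genes were lower in DRB, and so was 1 of the 4. That 1 was the most abundant, Olfr655, an olfactory receptor gene, with 9.04, 14.8 and 11.5 FPKM in DRB embryos, against 18.7, 25.9 and 18.7 FPKM in Con embryos (log2 fold change -0.80 ± 0.35, unadjusted p 0.0414, limma adjusted p 0.254). It was lower in every DRB library, the opposite direction to Usp17lb. The next were the pseudogene Gm5900, at 2.43 ± 1.47 FPKM in DRB embryos and 3.81 ± 2.36 FPKM in Con embryos, (SD, n = 3 each), and the noncoding gene Gm45272, with 3.92, 2.21 and 4.41 FPKM in DRB embryos and 1.69, 1.76 and 3.34 FPKM in Con embryos.

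**Figure D5:**
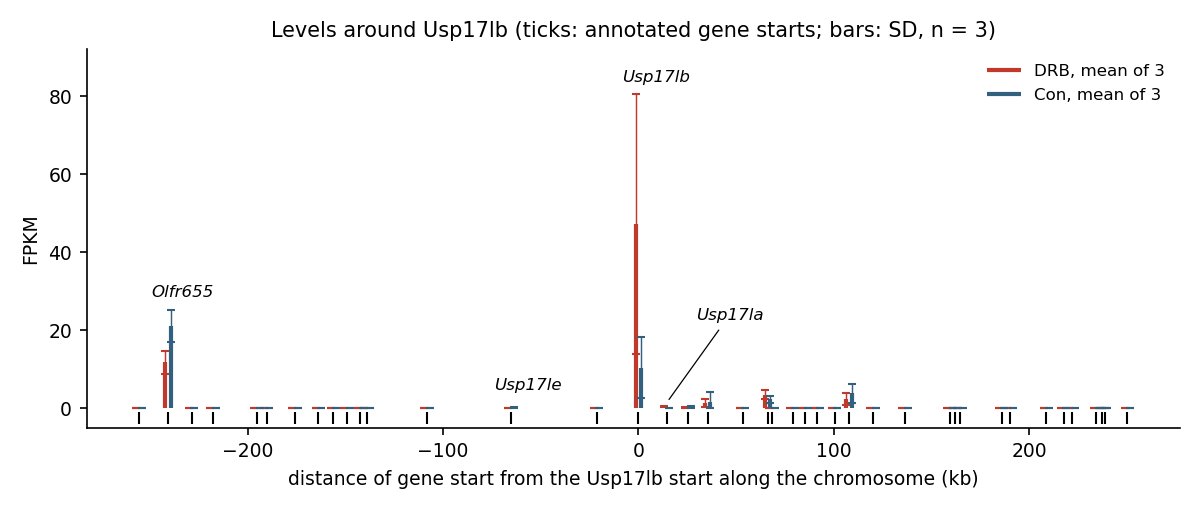
Mean FPKM in DRB (red) and Con (blue) embryos, with SD over 3 libraries (clipped at 0), of Usp17lb and the annotated genes around it, by the distance in kb of each gene's start from that of Usp17lb along the chromosome; ticks mark every gene start. Usp17lb averages 47.3 FPKM in DRB and 10.4 FPKM in Con and Olfr655 11.8 FPKM in DRB and 21.1 FPKM in Con, while Usp17le and Usp17la on either side of Usp17lb stay under 1 FPKM.

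The promoters of the copies resemble each other, and they are shown because copies with such similar sequence before the RefSeq start differed in level. RefSeq (GRCm38.p6, chromosome 7) gives a start for 4 of the 5 copies. In the stretch that aligns to 130 bases of the Usp17lb promoter, Usp17la differs at 8 bases, Usp17ld at 9 and Usp17lc at 9 of 124; capitals mark the TATA box letters TATAAA. The regions are chr7:104842594-104842723 (minus strand) for Usp17lb, chr7:104856861-104856990 (plus strand) for Usp17la, chr7:103416505-103416628 (plus strand) for Usp17lc and chr7:103252595-103252724 (minus strand) for Usp17ld.
Usp17lb: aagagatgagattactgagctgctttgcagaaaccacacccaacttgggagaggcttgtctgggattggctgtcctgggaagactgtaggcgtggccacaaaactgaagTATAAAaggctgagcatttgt
Usp17la: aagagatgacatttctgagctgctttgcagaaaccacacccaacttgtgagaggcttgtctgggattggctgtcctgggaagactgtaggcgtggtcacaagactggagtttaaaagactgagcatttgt
Usp17lc: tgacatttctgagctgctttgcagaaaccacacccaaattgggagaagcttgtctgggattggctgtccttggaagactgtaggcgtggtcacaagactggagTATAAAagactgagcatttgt
Usp17ld: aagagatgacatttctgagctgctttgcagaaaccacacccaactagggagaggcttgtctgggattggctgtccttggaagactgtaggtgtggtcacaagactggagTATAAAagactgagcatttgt

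The TATAAA of Usp17lb begins 31 bases before its RefSeq start, that of Usp17lc 88 bases and that of Usp17ld 110 bases before theirs, and the Usp17la window holds none. Some RefSeq starts differ from the GENCODE starts. The Usp17lc stretch lies wholly inside its GENCODE gene (chr7:103415072-103419880). The Usp17lb stretch partly overlaps its GENCODE gene, which starts at base 104842603. Which start was used in these embryos was not tested. Windows of 300 bases, 250 before the start and 50 after it, were searched on both strands for TATAAA, for ATTGG (the inverted CCAAT box), and for GGATTA and TGATTNAAT, cores bound by the early embryonic factors Obox and Dux. TATAAA was found in 3 of the 4 copies and in 13.6% of 32851 RefSeq promoters, and ATTGG in all 4 copies and in 37.4% of promoters. GGATTA (7.06% of promoters) and TGATTNAAT (0.718%) were found in none of the 4 windows. These matches describe letters in a window and show no binding.

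Summed levels of markers of other cells overlapped between the groups. Summed over 10 blood cell markers the level was 47.1 to 87.6 FPKM in DRB libraries and 74.6 to 117 FPKM in Con libraries. Nearly all of it came from 4 haemoglobin genes. Of the white blood cell markers, Ptprc and Cd3e were at most 0.21 FPKM in any library. Lyz2 reached 1.79 FPKM and Tyrobp 0.79 FPKM, both in Con replicate 1. Of 8 cumulus cell markers the sum was 149 to 277 FPKM in DRB libraries and 215 to 390 FPKM in Con libraries, mostly Gja1. Of these markers Amhr2 was at 19.8 to 28.2 FPKM in DRB libraries and 17.9 to 23.4 FPKM in Con libraries and Kitl at 1.66 to 3.97 FPKM in DRB libraries and 2.16 to 3.91 FPKM in Con libraries, while Cyp11a1 was listed at 0 in every library. Of 8 sperm markers the sum was 12.5 to 24.2 FPKM in DRB libraries and 12.7 to 22.7 FPKM in Con libraries, mostly Ldhc and Odf2, and Tnp2 was listed at 0 in every library. In limma 0 of the 9 tested markers of these 3 lists were called, and 0 had an unadjusted p under 0.05. Over all tested genes 2.48% were called, and 7.53% were higher and 10.5% lower at an unadjusted p under 0.05. Of 10 genes of the embryo and oocyte 9 were tested and 0 were called in limma, with 1 higher and 1 lower at an unadjusted p under 0.05. The 1 higher was Oosp1, with 178, 199 and 49.8 FPKM in DRB embryos, against 30.9, 47.9 and 37.7 FPKM in Con embryos. Its log2 fold change was 1.64 ± 0.47 (limma unadjusted p 0.00514, adjusted p 0.0963). The most abundant gene of this list, Dppa3, a maternal factor that guards DNA methylation, averaged 20240 ± 6001 FPKM in DRB embryos and 18710 ± 3881 FPKM in Con embryos (SD, n = 3 each), and with Oosp1 and Nr5a2 present the label of early embryos fits the libraries.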

How the data were processed

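Smart-Seq2 libraries of mouse 4-cell embryos were sequenced on an Illumina HiSeq as paired reads of 150 bases, per the labels' protocols. The submitters' processing notes name cutadapt 1.16, STAR and mm10; the tool and annotation behind the expression values are not stated in any source used here. Per the file headers, the authors deposited gene-level FPKM, which carry 2 decimals and are relative to the library's total, so abundant transcripts that rise lower all others.

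Genes with at least 1 FPKM in at least 3 of 6 libraries were tested with limma 3.58.1 (R 4.3.3) on log2(FPKM + 1), with the variance trend on and group the single term; p-values were two-sided, Benjamini-Hochberg adjusted over all 11893 tested genes and called below 0.05. The fit was tested on simulated data. Since no source calls the replicates separate cultures, the p-values reflect the spread among these libraries alone, and that spread may be technical. Low values of genes with 1 transcript of 500 to 1500 bases gave the depth, with 73.0% to 81.7% of them within 0.15 of a whole fragment; whole counts were not rebuilt and no count test was run. GENCODE M21 (GRCm38, the mm10 assembly) held 55154 of the gene IDs and lacked 181.

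The members, lists and tests were chosen with earlier results of these data known. Named are all members; from each list up to 4 called genes in each direction or else its 3 most abundant tested genes; called neighbours within 250 kb or else the 3 most abundant; and the 5 genes most like the family sum. The values of 1 gene that this rule names are not reported here. Stambp, Usp46, Usp9x, Zup1, single markers and the further 2-cell stage genes given by r were named after their values were seen. The family sum is described without a test. Same-numbered replicates did not deviate together (r = -0.05, 0.05 and -0.05), so the numbers were not taken as pairs. Alternatives were a pseudocount of 0.1, no filter, a replicate block, leaving out each library, median-of-ratios scaling, leaving out mitochondrial genes and no trend, with a filter of 0.1 FPKM added after seeing the data. Sequences were aligned with Biopython 1.88; tables used pandas 2.3.3 and numpy 2.4.6 in Python 3.11.15, and figures matplotlib 3.10.9.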

Additional observations from a re-analysis of the deposited data

How the results depend on the processing

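The count of members called was 0 under all 13 alternatives, the log2 fold change of Usp17lb kept its direction and stayed uncalled in each, and the log2 ratio of the summed level kept its direction in all 10 alternatives computed for it, from 1.41 without DRB replicate 2 to 2.85 without Con replicate 1. The count of all genes called was less stable. It was 295 as reported, 164 with a pseudocount of 0.1, 6 with no filter (27554 genes tested), 181 with a filter of 0.1 FPKM, and 47 to 220 when a library was left out. With the replicate block it was 171, and Usp17lb had an adjusted p of 0.148; the paired fit changed no call of a member. Leaving out mitochondrial genes moved the median log2 fold change of all genes to 0.02, from -0.09, and the split to 191 higher and 74 lower, from 182 and 113; median-of-ratios scaling gave 229 and 86. Usp17lb was at 2.27 without mitochondrial genes and at 2.24 with median-of-ratios scaling. With a pseudocount of 0.1 the untested differences were 1.81 for Usp17la, 0.85 for Usp17ld and -0.88 for Usp17le. Apart from filters and fewer samples, the cause of these shifts was not tested. Usp17la, Usp17lc, Usp17ld and Usp17le rested on 0 to 65 fragments per library by the estimated depth, and a depth limit on their differences was not tested. The call of Usp14 was lost with no filter, with the replicate block and with no mean-variance trend.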
